A study of Mus musculus with 10 samples.

Results

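Semaphorins, their plexin and neuropilin receptors, ephrins and the Eph receptors that bind them were examined in hearts of mouse embryos at embryonic day 13.5 (E13.5). Members were the protein-coding genes whose symbols name them as semaphorins of classes 3 to 7, plexins, neuropilins, ephrins or Eph receptors, which gave 52 of the 23195 genes listed. The rule used symbols and no measured value, though members were chosen with earlier results of these data known. RNA carrying a polyA tail was sequenced from hearts of 5 wild-type and 5 *Nos1ap* null males, all of strain C57BL6/J in the sample labels. The null embryos were *Nos1ap* tm1d/tm1d: exon 4 was removed by CMV-Cre, which acts in all tissues, and the *lacZ* and *neo* cassettes of the targeted allele were no longer present. The allele descends from embryonic stem cells of the C57BL/6N strain and was maintained on C57BL/6J, and the null affects every tissue rather than cardiac cells alone.

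Semaphorins are secreted or membrane-bound guidance proteins. Those of class 3 are secreted and mostly bind a neuropilin that signals through a plexin, whereas those of classes 4 to 7 mostly bind plexins directly. Ephrins are anchored to the cell surface, the A type by a lipid and the B type by a membrane-spanning segment, and bind Eph receptor tyrosine kinases on neighboring cells. In the embryonic heart these systems are known for guiding neural crest cells into the outflow tract, shaping valve cushions and the coronary vessels, separating arterial from venous endothelium and steering the nerves that enter the heart.

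The only comparison is *Nos1ap* null against wild type, which asks whether loss of *Nos1ap* changes RNA levels in the E13.5 heart. Values are normalized counts, that is, read pairs assigned to a gene and divided by a factor for the depth of the library. The deposited values are means of each genotype. Whole counts of single libraries were recovered from them, with an estimated depth of 11328000 to 14023000 read pairs per library, and libraries are numbered from 1 to 5 within a genotype by descending depth. *Nos1ap* itself was at 126 to 161 in wild type and at 31.1 to 44.4 in null, without overlap (exact two-sided permutation p = 0.00794, the smallest that 5 libraries against 5 allow). The tissue label was matched by the cardiomyocyte genes *Tnnt2*, with means of 37532 in wild type and 37652 in null, and *Myh7*, with 128162 and 129864. All 6 cardiomyocyte and 7 endothelial markers listed were present.

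Wild-type library 3 held the highest value, and null library 2 the lowest, for more members than any other library. In wild-type library 3, the summed normalized count of the 6 neuronal markers with recovered counts was 1760, against 91.0 to 112 in the other wild-type libraries and 84.5 to 104 in the null libraries. All 6 were highest there, as were all 5 glial markers, whose sum was 763 against 344 to 424 in the other wild-type libraries. The smooth muscle gene *Myh11* was also highest there, at 206 against 32.9 to 69.1 in the other wild-type libraries. The other smooth muscle genes listed have no counts of single libraries. Their means in wild type and null were 2857 and 2855 for *Cnn1*, 2770 and 2637 for *Tagln*, and 12534 and 12154 for *Acta2*. Of the 4 lung epithelium markers listed, *Cdh1* and *Epcam* were highest in wild-type library 3, with 16 and 13 reads. Their summed normalized count was 29.5 against 6.09 to 8.28 in the other wild-type libraries. The remaining 2, *Nkx2-1* and *Sftpc*, were absent from the deposited values. In null library 2, the endothelial gene *Egfl7* was at 1034 against 910 to 964 in the other null libraries. Their part in the results for members was not tested. In whole-heart RNA, fewer cells of a type and less RNA per cell cannot be told apart.

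Plexins, a B-type ephrin, an EphB receptor and a neuropilin had the highest levels. Per kilobase of exon, the level of *Plxnd1*, an endothelial plexin, was a mean normalized count of 753 in wild type and 765 in null. Next came *Plxnb2*, at 602 and 614 per kilobase, the ephrin gene *Efnb3*, at 573 and 574, and *Ephb4*, the Eph receptor of venous endothelium, at 460 and 457. *Nrp1*, which serves class 3 semaphorins and vascular endothelial growth factor, followed at 321 and 324. The 5 members with the highest levels per kilobase held the same places in both genotypes. The lowest 4 in wild type were *Epha5*, *Epha10*, *Epha8* and *Epha6*, with levels of 1.2, 0.507, 0.403 and 0.0391 per kilobase. The levels of *Epha5* and *Epha10* rest on wild-type library 3, without which they were 0.561 and 0.0336 per kilobase, and *Epha10* was then below *Epha8*, at 0.342, and *Epha6*, at 0.0489.

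**Figure D1:**
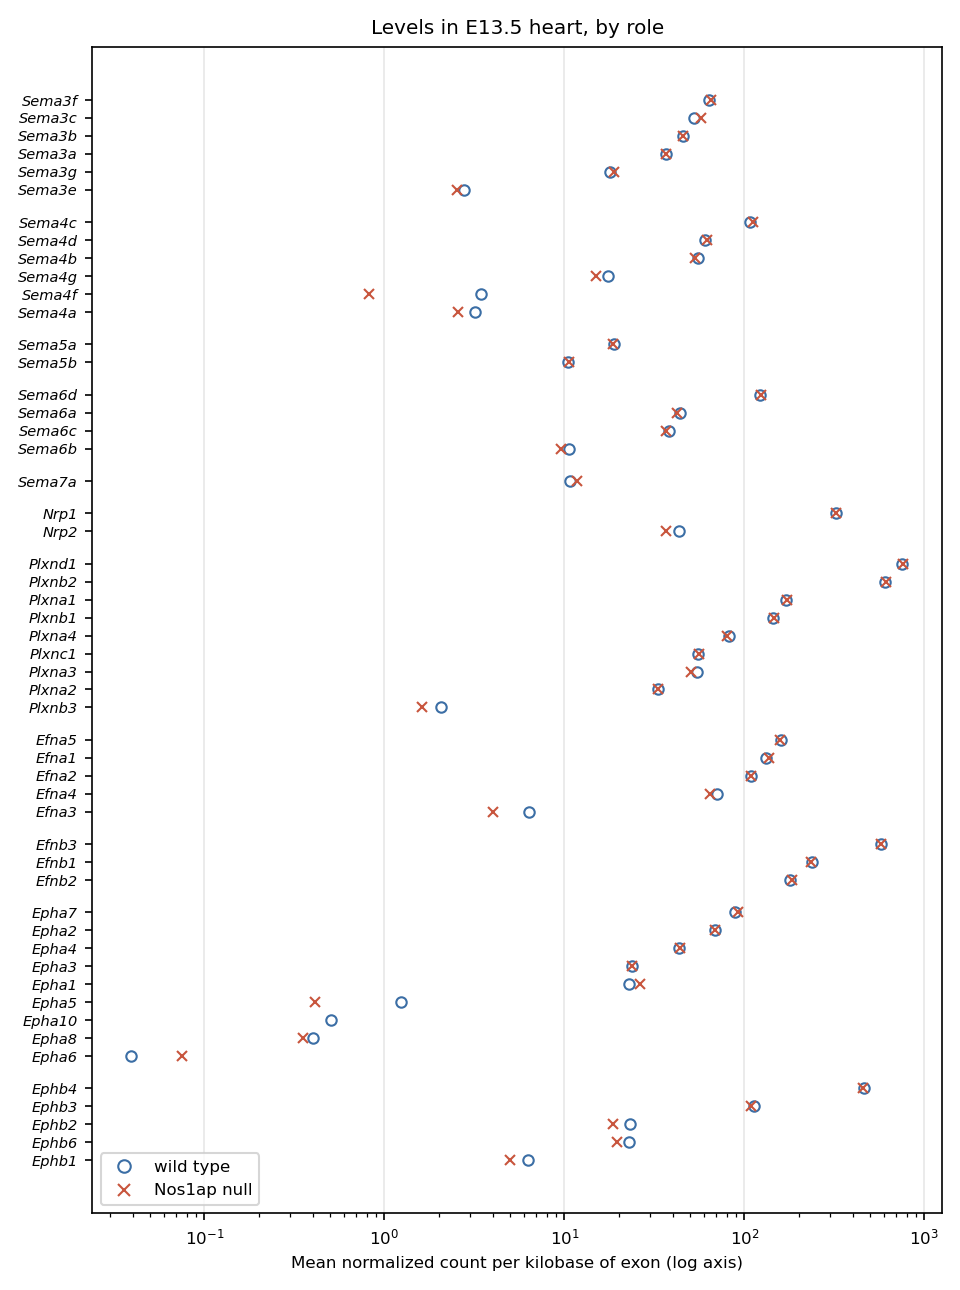
Mean normalized count per kilobase of exon (log axis) of the 52 members in wild type (circles) and *Nos1ap* null (crosses), ordered by role and then by level in wild type; *Epha10* has no cross because no read was counted in any null library. Circles and crosses nearly coincide for most members, and the visible gaps are at low levels, as for *Sema4f* at 3.45 against 0.821 and *Epha5* at 1.2 against 0.41 per kilobase.

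Within each role, a few genes held much of the summed level per kilobase. *Nrp1* made up 88.2% of the neuropilin sum in wild type and 89.9% in null. *Ephb4* made up 73.5% and 75.1% of the EphB receptor sum, *Efnb3* 57.8% and 57.8% of the ephrin-B sum, and *Plxnd1* 39.7% and 39.9% of the plexin sum. The leading genes of the remaining roles were *Sema3f*, *Sema4c*, *Sema5a*, *Sema6d*, *Sema7a*, *Efna5* and *Epha7*, the same in both genotypes.

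No member differed between the genotypes at an adjusted p under 0.05. The test was limma on log2(normalized count + 1), adjusted by the Benjamini-Hochberg procedure over 10069 genes, those that code for proteins, average at least 10 and have counts for single libraries. Across these genes, 0.0298% (3 genes) passed, and 0 of the 37 members tested did. At an unadjusted p under 0.05, 3.56% of all genes tested passed and 1 member did, the ephrin gene *Efna3*. In 0.765% of the genes tested the libraries of the 2 genotypes did not overlap, and this was so for 0 members. The median log2 fold change of null over wild type was -0.0073 over the members and -0.0046 over all genes tested, and the median of its absolute size was 0.050 and 0.056. Of the 37 members, 14 had a fold change above and 23 below 1, against 4811 and 5258 of all genes tested. On the log2 scale, 22 members (59.5%) lay within 0.1 of 0, against 71.4% of all genes tested.

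The 95% interval of the log2 fold change lay within 0.5 of 0 in both directions for 28 of the 37 members tested (75.7%). Of all genes tested, this was so for 82.3%. The interval lay within 1 for 34 members and for 9687 of the 10069 genes tested. Of the 15 members not tested, 3 (*Epha6*, *Epha8* and *Epha10*) had means under 10. The other 12 have no recovered counts in at least 1 genotype, 10 of them because their means exceed 1000 (*Plxnd1*, *Plxnb1*, *Plxnb2*, *Plxna1*, *Plxna4*, *Nrp1*, *Sema6d*, *Efnb2*, *Efnb3* and *Ephb4*). For these 10 the log2 ratio of the group means ranged from -0.034 for *Plxna4* to 0.034 for *Efnb2*. They carry no error, since the means give no spread.

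**Figure D2:**
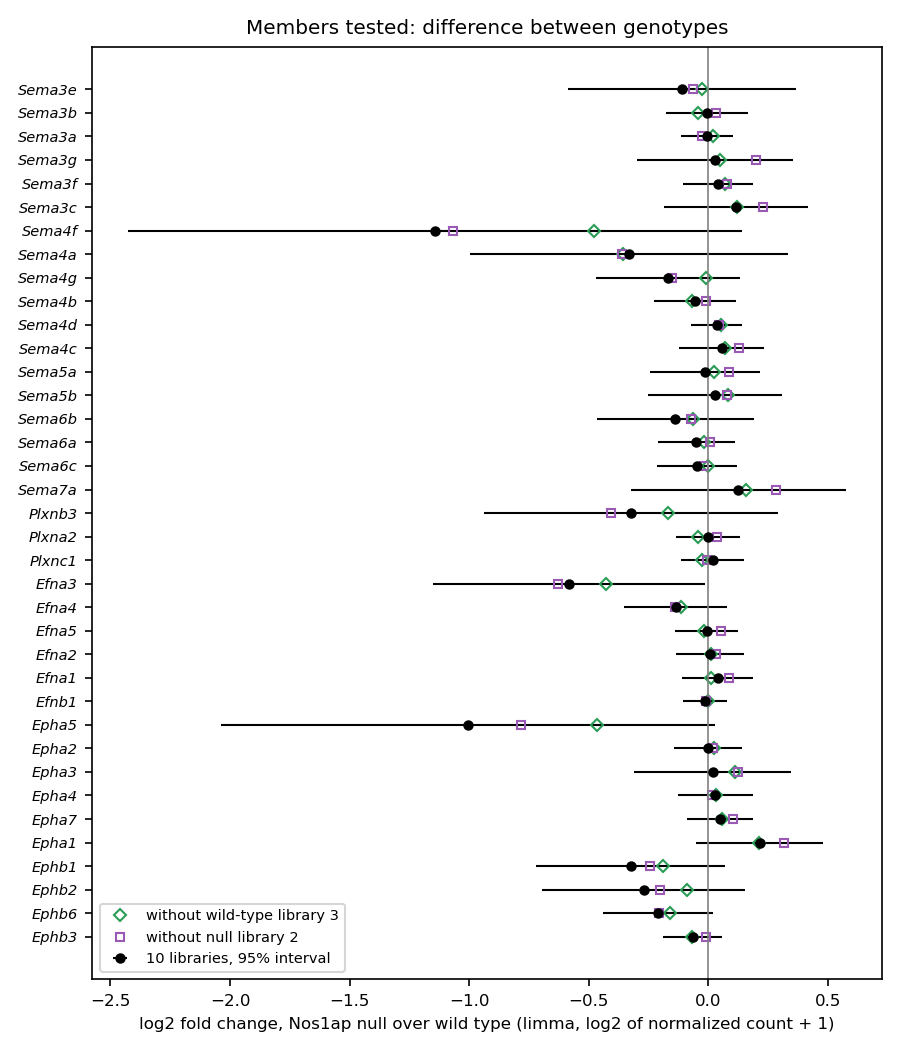
Log2 fold change of *Nos1ap* null over wild type (limma on log2 of normalized count + 1) for the 37 members tested, with 95% intervals from 10 libraries (black), and the estimates without wild-type library 3 (green diamonds) and without null library 2 (purple squares). Only the interval of *Efna3*, from -1.15 to -0.01, leaves out 0, and *Sema4f* and *Epha5* move from -1.14 to -0.48 and from -1.01 to -0.47 without wild-type library 3.

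Among the class 3 semaphorins, *Sema3c* guides neural crest cells into the outflow tract. Its normalized counts were 322, 380, 380, 342 and 457 in wild-type libraries 1 to 5 and 437, 293, 455, 464 and 400 in null libraries 1 to 5. The ranges overlapped, and null library 2 was lower than all others. The log2 fold change was 0.11 (95% interval -0.19 to 0.42, limma adjusted p = 0.998). Without null library 2 it was 0.23 (unadjusted p = 0.0136, adjusted p = 0.830 in limma). Leaving out the lowest null library raises this estimate by construction, and the unadjusted p is not independent of that choice. *Sema3a*, a repellent of sympathetic and sensory axons, was at 524, 496, 549, 492 and 489 in wild type and at 478, 540, 496, 499 and 527 in null. Its interval was among the narrowest, from -0.11 to 0.10 around a log2 fold change of -0.01, and the ranges overlapped.

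The remaining class 3 genes overlapped between the genotypes as well. *Sema3f*, a ligand of Nrp2 and the leading class 3 gene per kilobase, was at 332 ± 27.3 in wild type and 341 ± 30.0 in null (SD, n = 5 each). *Sema3e*, which binds Plxnd1 without a neuropilin, was at 25.6 ± 7.04 and 23.5 ± 5.74. *Sema3b* had means of 218 and 217. *Sema3g*, an endothelial semaphorin, was at 72.2, 81.3, 86.5, 82.6 and 85.9 in wild type and at 98.1, 51.3, 99.8, 78.4 and 100.2 in null. Null library 2 thus lay below every wild-type library, and 3 null libraries lay above all of them.

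Of the neuropilins, *Nrp1* had means of 3141 in wild type and 3173 in null, a log2 ratio of 0.015. *Nrp2*, the receptor of Sema3f, had a mean of 510 in wild type, and its null libraries 1 to 5 were at 476, 322, 484, 473 and 412, with a mean of 433. All 5 null libraries were below the wild-type mean and null library 2 was again the lowest. The log2 ratio of the means was -0.24, but the wild-type counts could not be settled. Neither the wild-type spread nor a test can be given, and whether the libraries of the genotypes overlapped is not known.

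Among the plexins, those at the highest level had similar means in both genotypes. *Plxnd1* had means of 5499 in wild type and 5582 in null, *Plxnb2* of 4644 and 4738, *Plxna1* of 1540 and 1563, *Plxnb1*, the receptor of Sema4d, of 1391 and 1397, and *Plxna4*, of 1153 and 1126. *Plxna2*, which acts with Nrp1 in the response of neural crest cells to Sema3c, was at 532, 564, 507, 649 and 600 in wild type and at 595, 510, 608, 569 and 562 in null. Its ranges overlapped, with a log2 fold change of -0.002 (95% interval -0.14 to 0.13). *Plxnc1*, the receptor of Sema7a, was at 464 ± 35.6 and 470 ± 34.6 (SD, n = 5 each). *Plxnb3* was low, at 9.31 to 20.4 in wild type and 6.44 to 13.1 in null, with its highest value in wild-type library 3. For *Plxna3* the means were 432 and 400, and its wild-type counts were not settled.

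*Sema4d*, a ligand of Plxnb1, had the narrowest interval of the class 4 semaphorins. It was at 468, 447, 494, 444 and 482 in wild type and at 509, 463, 480, 480 and 460 in null, with a log2 fold change of 0.03 (95% interval -0.07 to 0.14). The leading class 4 gene per kilobase, *Sema4c*, was at 492 ± 47.5 and 512 ± 57.6, and *Sema4b* at 311 ± 13.9 and 302 ± 46.7 (SD, n = 5 each). *Sema4a*, best known from immune cells, was at 11.4 to 25.2 in wild type and 5.04 to 18.0 in null. *Sema4g* was at 229 in wild-type library 3, 120 to 152 in the other wild-type libraries and 125 to 139 in null, and its log2 fold change moved from -0.17 to -0.01 without that library.

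*Sema5a* and *Sema5b*, which carry thrombospondin repeats, had overlapping ranges, with means of 351 against 350 and 74.2 against 75.6. *Sema6d*, a ligand of Plxna1 in the developing ventricle, had the highest class 6 level, with means of 1283 and 1309. *Sema6a* was at 339 to 419 in wild type and 317 to 427 in null, *Sema6b* at 35.2 to 50.9 and 31.2 to 45.1, and *Sema6c* at 189 to 257 and 199 to 245. *Sema7a*, which is anchored by a lipid, was at 21.7 to 47.4 and 24.1 to 45.4. All of these ranges overlapped.

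*Efna3* was the ephrin with the smallest limma p. It was at 11.3, 11.6, 23.4, 14.4 and 16.6 in wild type and at 7.20, 11.1, 10.1, 11.8 and 8.71 in null. Null library 4 lay above wild-type libraries 1 and 2, so the genotypes overlapped, and the highest value was in wild-type library 3. The log2 fold change was -0.58 (95% interval -1.15 to -0.01), with an unadjusted p of 0.0455 and an adjusted p of 0.998 in limma. Without wild-type library 3 it was -0.43, with an unadjusted limma p of 0.120.

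The other ephrins differed less. *Efnb1*, a ligand of EphB receptors, was at 864, 772, 857, 858 and 766 in wild type and at 806, 804, 820, 825 and 811 in null, within the wild-type range. Its log2 fold change was -0.01 (95% interval -0.11 to 0.08). *Efna1*, a ligand present in valve cushions, was at 260, 251.7, 223, 239 and 240 in wild type and at 280, 218, 257, 247 and 248 in null. *Efna5*, the leading ephrin-A gene per kilobase, was at 641 ± 40.3 and 640 ± 62.0, *Efna2* at 233 ± 16.4 and 233 ± 12.8, and *Efna4* at 113 ± 6.54 and 104 ± 14.3 (SD, n = 5 each). All of them overlapped between the genotypes. *Efnb2*, the ephrin of arterial endothelium, and *Efnb3* had means of 1226 against 1255 and 1823 against 1828.

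Among the EphA receptors, *Epha1* had the largest positive log2 fold change of the members tested, 0.21 (95% interval -0.05 to 0.48, limma adjusted p = 0.998). It was at 81.8, 78.4, 87.5, 84.6 and 114 in wild type and at 113, 77.4, 121, 99.9 and 108 in null. The low value of null library 2 and the high value of wild-type library 5 made the ranges overlap. Without null library 2 the log2 fold change was 0.31 (unadjusted p = 0.0133, adjusted p = 0.830 in limma). As for *Sema3c*, leaving out the lowest null library raises the estimate by construction. *Epha3*, a receptor of the atrioventricular cushions, was at 171, 224, 262, 157 and 213 in wild type and at 237, 153, 212, 227 and 206 in null. Here wild-type library 3 was the highest and null library 2 the lowest, and the log2 fold change was 0.02 (95% interval -0.31 to 0.35). *Epha7*, the leading EphA receptor per kilobase, was at 877 ± 74.9 and 907 ± 79.3, *Epha4* at 348 ± 43.2 and 353 ± 13.8, and *Epha2* at 322 ± 23.2 and 322 ± 27.4 (SD, n = 5 each). *Epha6* and *Epha8* did not exceed 1.07 and 4.02 in any library.

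All 5 EphB receptors had a lower mean in null, by -0.010 for *Ephb4* to -0.33 for *Ephb1* (-0.17 without wild-type library 3) in the log2 ratio of means, and none of the 4 tested passed the adjusted threshold. *Ephb4* had means of 2134 and 2120. *Ephb3* was at 692, 732, 745, 815 and 771 in wild type and at 733, 617, 707, 767 and 771 in null, with a log2 fold change of -0.06 (95% interval -0.19 to 0.06), and of -0.01 without null library 2. *Ephb6*, which lacks kinase activity, was at 91.3, 72.6, 99.8, 89.8 and 79.7 in wild type and at 70.2, 73.4, 76.6, 71.9 and 79.5 in null, so that 1 wild-type library lay among the null values. Its log2 fold change was -0.21 (95% interval -0.44 to 0.02, limma adjusted p = 0.998), and -0.16 without wild-type library 3. *Ephb2*, which recognizes ephrin-B ligands in axon guidance, was at 249, 224, 464, 275 and 249 in wild type and at 231, 192, 249, 257 and 243 in null. Its log2 fold change of -0.27 was -0.09 without wild-type library 3. *Ephb1* was at 35.7, 41.6, 63.1, 43.3 and 36.2 in wild type and at 35.1, 27.1, 27.2, 48.3 and 37.0 in null, and its log2 fold change of -0.32 was -0.19 without wild-type library 3.

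**Figure D3:**
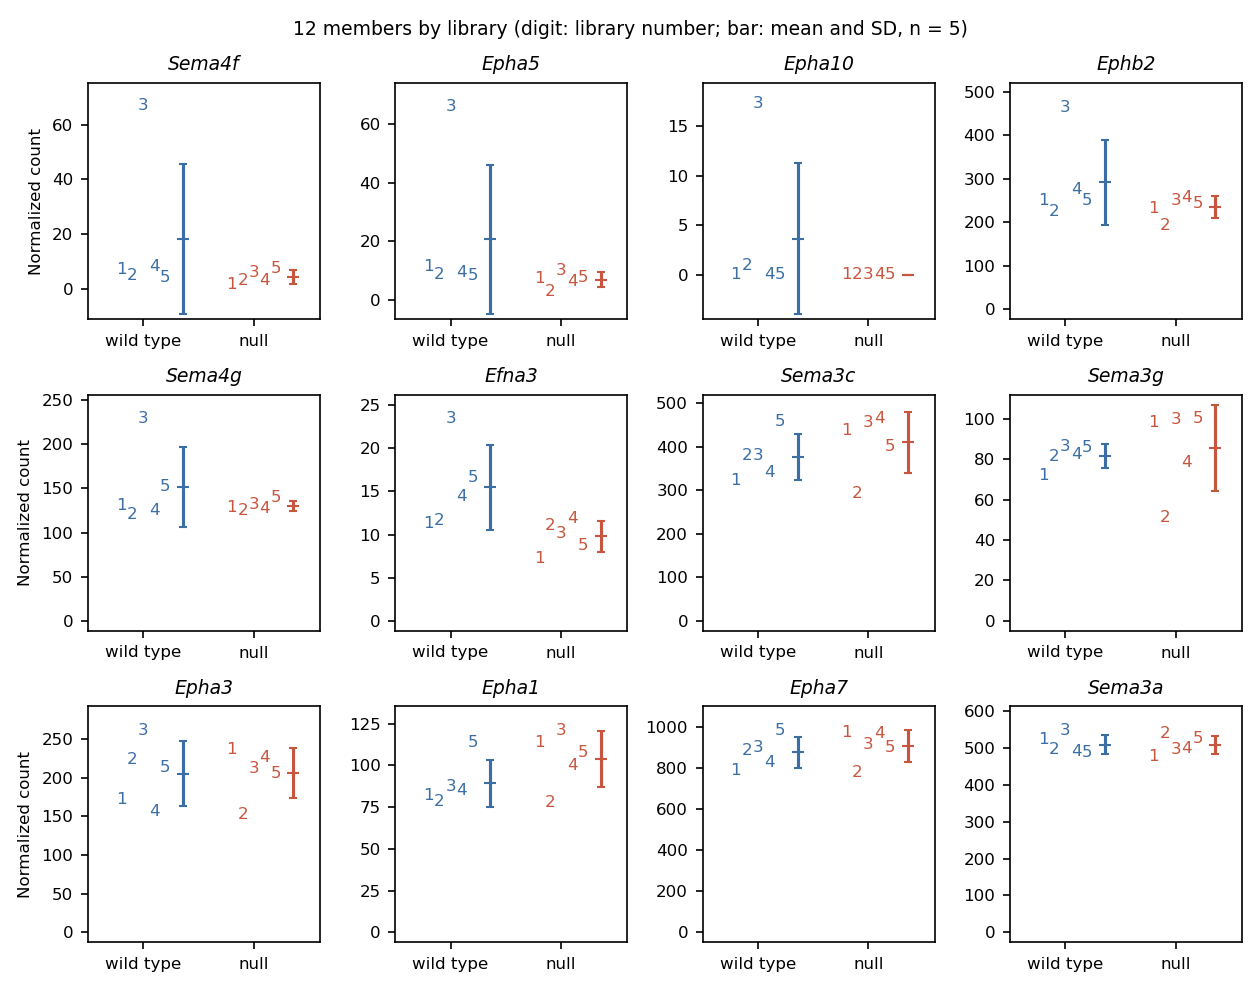
Normalized counts of 12 members in each library, with digits marking the library number within its genotype and bars the mean and SD of 5 libraries. The axis of each panel starts below 0. Wild-type library 3 is far above the rest for *Sema4f*, *Epha5*, *Epha10* and *Ephb2*, and null library 2 is the lowest null library for *Sema3c*, *Sema3g*, *Epha3*, *Epha1* and *Epha7*.

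*Sema4f*, a membrane-bound semaphorin of neurons, and *Epha5*, an Eph receptor of the nervous system, had the largest log2 fold changes of the members tested. *Sema4f* was at 6.96, 4.84, 67.2, 8.26 and 4.14 in wild type and at 1.80, 3.02, 6.05, 3.22 and 7.62 in null. *Epha5* was at 11.3, 8.71, 66.2, 9.29 and 8.28 in wild type and at 7.20, 3.02, 10.1, 6.44 and 7.62 in null. In both, wild-type library 3 alone lay far above the remaining 9 libraries, which overlapped between the genotypes. The log2 fold change of *Sema4f* was -1.14 (95% interval -2.43 to 0.14), and -0.48 without that library. That of *Epha5* was -1.01 (-2.04 to 0.03), and -0.47 without it. *Epha10*, an Eph receptor without kinase activity, was at 17.3 in wild-type library 3, at 0.968 in wild-type library 2 and at 0 in the other 3. It was at 0 in all 5 null libraries, where 3 counts over the group would correspond to a mean of 0.606.

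Wild-type library 3 held the highest of the 10 values for 12 of the 37 members tested (32.4%), against 15.7% of all genes tested. Besides *Sema4f*, *Epha5*, *Ephb2*, *Ephb1*, *Sema4g*, *Efna3* and *Plxnb3* these were *Epha3*, *Ephb6*, *Sema3a*, *Sema6b* and *Sema6c*. Compared with the mean of the other wild-type libraries its value was 11.1-fold for *Sema4f*, 7.04-fold for *Epha5*, 1.86-fold for *Ephb2*, 1.74-fold for *Sema4g* and *Efna3*, 1.73-fold for *Plxnb3* and 1.61-fold for *Ephb1*. Neuronal and glial markers were highest in the same library, as given above.

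Null library 2 held the lowest of the 10 values for 16 of the 37 members (43.2%), against 14.6% of all genes tested. Semaphorins, ephrins and Eph receptors were among them: *Sema3b*, *Sema3c*, *Sema3g*, *Sema4b*, *Sema5a*, *Sema6a*, *Sema6b*, *Efna1*, *Efna5*, *Epha1*, *Epha3*, *Epha5*, *Epha7*, *Ephb1*, *Ephb2* and *Ephb3*. Relative to the mean of the other null libraries, the library was at 0.385-fold for *Epha5*, 0.545-fold for *Sema3g*, 0.667-fold for *Sema3c*, 0.694-fold for *Epha3*, 0.700-fold for *Sema5a* and 0.701-fold for *Epha1*. On the scale of log2(normalized count + 1), it was below the mean of the other null libraries for 30 of the 37 members (81.1%), against 49.5% of all genes tested. The median difference on this scale was -0.23 over members and 0.003 over all genes tested. Set against the other libraries of their own genotype in the same way, the median over members was -0.14 for wild-type library 1, with 24 of 37 members below, and 0.12 for wild-type library 3, with 28 above. Null library 3 also had 28 members above, with a median difference of 0.063, and the other 6 libraries had medians from -0.045 to 0.086.

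**Figure D4:**
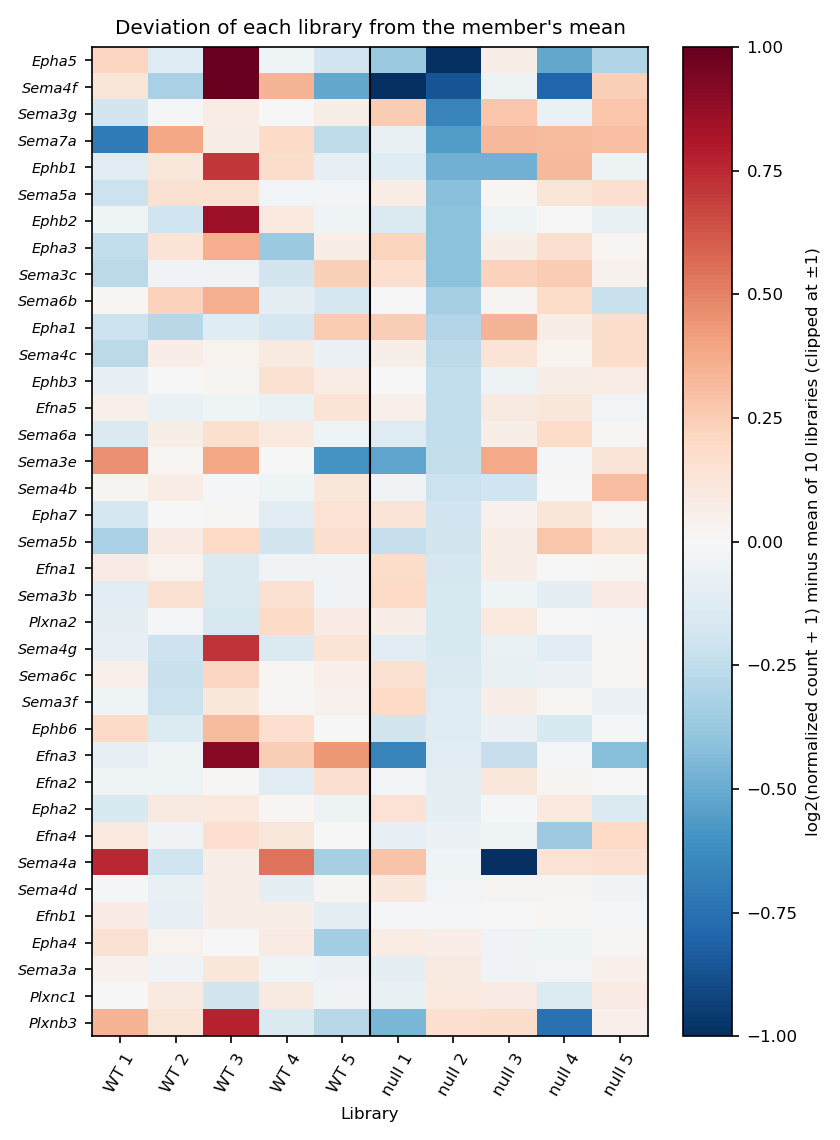
Log2(normalized count + 1) of the 37 members tested in each of the 10 libraries, as the difference from the member's mean over all libraries (color clipped at 1 in both directions), with members ordered by null library 2. The column of null library 2 is blue for most members, and the column of wild-type library 3 holds the darkest red cells, those of *Epha5* and *Sema4f*.

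Promoter sequences are given for members that stood out in these 2 libraries, to set their sequence beside their values. RefSeq promoters (250 bases before to 50 after the start, build GRCm38.p6) were found for 46 of the 52 members, all but *Efnb3*, *Plxna1*, *Plxna4*, *Sema3b*, *Sema3f* and *Sema6a*. Capitals mark 3 motifs on either strand, whose matches do not overlap in these windows. The GC box was searched as GGGCGG. The CCAAT box was searched by the letters of its name. The TATA box was searched as TATAAA. The first 3 belong to members highest in wild-type library 3 and the last 2 to members lowest in null library 2. They lie at chr6:82939720-82940019 (minus strand) for *Sema4f*, chr5:84417333-84417632 (minus) for *Epha5*, chr4:124881535-124881834 (plus) for *Epha10*, chr5:17574566-17574865 (plus) for *Sema3c* and chr14:31217623-31217922 (plus) for *Sema3g*.
Sema4f: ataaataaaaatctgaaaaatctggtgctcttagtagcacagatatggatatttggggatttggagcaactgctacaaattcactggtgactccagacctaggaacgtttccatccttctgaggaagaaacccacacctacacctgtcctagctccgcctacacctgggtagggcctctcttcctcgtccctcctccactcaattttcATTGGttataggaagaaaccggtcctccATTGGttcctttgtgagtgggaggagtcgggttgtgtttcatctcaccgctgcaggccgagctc
Epha5: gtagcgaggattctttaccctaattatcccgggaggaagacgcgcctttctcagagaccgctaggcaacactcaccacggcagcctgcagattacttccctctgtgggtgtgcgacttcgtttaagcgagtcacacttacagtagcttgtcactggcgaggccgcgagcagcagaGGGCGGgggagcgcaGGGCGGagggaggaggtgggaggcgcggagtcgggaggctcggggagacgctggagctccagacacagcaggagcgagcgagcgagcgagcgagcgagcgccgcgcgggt
Epha10: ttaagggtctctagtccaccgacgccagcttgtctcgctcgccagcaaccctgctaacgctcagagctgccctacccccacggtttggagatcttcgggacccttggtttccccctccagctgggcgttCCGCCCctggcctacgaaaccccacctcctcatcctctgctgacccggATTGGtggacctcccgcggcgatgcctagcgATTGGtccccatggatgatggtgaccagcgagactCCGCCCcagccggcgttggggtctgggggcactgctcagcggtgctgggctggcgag
Sema3c: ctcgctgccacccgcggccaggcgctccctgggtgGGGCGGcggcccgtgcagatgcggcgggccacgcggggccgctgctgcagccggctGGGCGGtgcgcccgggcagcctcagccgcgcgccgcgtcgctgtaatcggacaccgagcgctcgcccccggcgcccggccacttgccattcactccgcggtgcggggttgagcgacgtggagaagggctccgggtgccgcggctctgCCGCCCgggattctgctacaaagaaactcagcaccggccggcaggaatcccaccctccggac
Sema3g: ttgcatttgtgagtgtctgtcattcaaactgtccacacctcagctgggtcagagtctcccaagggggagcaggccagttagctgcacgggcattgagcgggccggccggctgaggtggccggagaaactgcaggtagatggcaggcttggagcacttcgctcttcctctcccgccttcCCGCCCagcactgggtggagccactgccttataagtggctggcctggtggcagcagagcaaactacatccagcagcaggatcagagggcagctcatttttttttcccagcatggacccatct

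These windows differed widely in base composition. The *Sema4f* window was 48.7% G or C, with 7 CG pairs, 2 CCAAT boxes and no GC box, whereas the *Epha5* window was 64.3% G or C, with 30 CG pairs and 2 GC boxes. The *Epha10* window held 2 GC boxes and 2 CCAAT boxes at 65.3% G or C. The *Sema3c* window was 75.7% G or C, with 42 CG pairs and 3 GC boxes, and the *Sema3g* window 58.7%, with 8 CG pairs and 1 GC box. No TATA box was found in these 5. A GC box was in 76.7% of the 60 promoters of members, in 60.6% of those of the genes tested and in 35.7% of all promoters of the table. For the TATA box these shares were 1.67%, 7.07% and 13.6%, and for the CCAAT box 31.7%, 37.4% and 37.4%. A match describes these letters and is not evidence of a bound factor.

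Of 60 genes listed for signaling downstream of or beside these receptors, 30 were tested, and 0 of them passed the adjusted threshold. Their median log2 fold change was -0.0051, with 14 above and 16 below 0. At an unadjusted limma p under 0.05 there were 2. *Vav3*, a guanine nucleotide exchange factor, was at 199, 188, 194, 183 and 174.8 in wild type and at 222, 198, 198, 251 and 212 in null, a log2 fold change of 0.20 (limma unadjusted p = 0.0171, adjusted p = 0.998). *Limk1*, a kinase of the actin regulator cofilin, was at 420, 363, 486, 404 and 415 in wild type and at 330, 372, 402, 364 and 368 in null, a log2 fold change of -0.18 (limma unadjusted p = 0.0177, adjusted p = 0.998). In both genes the ranges overlapped.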

How the data were processed

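PolyA RNA of 10 hearts, 5 per genotype, was sequenced from stranded libraries as paired reads. According to the methods and the submitters' processing notes, the authors trimmed reads with Trimmomatic 0.36, estimated gene counts with RSEM 1.2.31 and STAR on GENCODE M10 transcripts of GRCm38 and compared genotypes with DESeq 1.24.0. The deposited signal values are normalized counts, which the authors averaged over the libraries of a genotype. The first mean column was taken as wild type and the second as null, a reading that the level of *Nos1ap* matches. Fold changes, log2 fold changes and p-values of the authors' comparison are also in the deposited table and were not used.

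A group mean is a sum of 5 whole counts, each divided by its size factor, and is written with 15 digits. Size factors were read from the smallest means, and whole counts giving each mean under 1000 were searched. The set nearest to equal levels was accepted if chance was expected to give no more than 0.01 others as near. Every set was searched below a mean of 100. Counts were recovered in both genotypes for 13742 of 16973 protein-coding genes. Genes whose counts differ widely between libraries are recovered less often. On data simulated with known counts, none was recovered wrongly. The gaps set between simulated libraries were smaller than those of wild-type library 3 for several neuronal markers and for *Sema4f*, *Epha5*, *Epha10* and *L1cam*. Gaps of that size were not checked. In the check of limma on simulated data, large known changes were recovered more often than small ones. A log2 change of 0.25 was recovered for 27% of the changed genes, of 0.5 for 70% and of 1 for 87.5%. Most changes of 0.25 were thus missed.

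Protein-coding genes averaging at least 10 normalized counts entered a test in limma 3.58.1 (R 4.3.3) on log2(normalized count + 1), a scale that understates changes of low genes, with trended and robust moderation, genotype as the only term and Benjamini-Hochberg adjustment. The permutation test for single genes was exact and two-sided, with 252 arrangements. Levels per kilobase used exon lengths of GENCODE M21 by gene ID, found for all 52 members. Alternatives changed the pseudocount, scaling, filter, weights, gene types and libraries. Full values were planned for the 12 members with the smallest p, members known from outflow, vascular and cushion patterning, the highest member of each role and members with a gap of 1 library. Each library is from 1 male. Members and lists were chosen with earlier results of these data known. An item that the symbol rule would match is not reported here.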

Additional observations from a re-analysis of the deposited data

Results flagged for a closer look

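In each group of 5 libraries, the highest and the lowest value of each member with recovered counts were compared with their nearest neighbor, and 7 of the 79 groups examined (8.86%) had a gap above 0.71 of the group's range. For independent, normally distributed values, chance gives such a gap in about 1 in 20 groups. The groups here share the same libraries, and some hold very few reads. The share of 8.86% therefore cannot be read against that rate. In 5 of the 7 the library was wild-type library 3. *Sema4f* was at 67.2 there against 4.14 to 8.26 in the other wild-type libraries, *Epha5* at 66.2 against 8.28 to 11.3, and *Epha10* at 17.3 against 0 to 0.968. *Ephb2* was at 464 against 224 to 275, and *Ephb1* at 63.1 against 35.7 to 43.3. The sum of the recovered neuronal markers in that library was 1760 against 91.0 to 112, and its part in these values was not tested. The other 2 were in wild-type library 5, where *Epha1* was at 114 against 78.4 to 87.5, and *Epha6* at 1.03 against 0 in the other 4, which is 1 read. No null library had such a gap.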

How the results depend on the processing

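No paired analysis was possible because the group means carry no replicate numbers. In 17 alternative fits, 0 of 623 member values passed the adjusted threshold, and the smallest adjusted p in limma was 0.830, for *Epha1* and *Sema3c* without null library 2. The number of members with an unadjusted p under 0.05 was 1 in the fit reported, 0 with a minimum mean of 50, which removes *Efna3*, and 0 to 3 when each library was left out in turn. It was 0 without wild-type library 3, null libraries 1 or 5, and 3 without wild-type library 2, wild-type library 5 or null library 2. Without both wild-type library 3 and null library 2, an alternative chosen after seeing the data, it was 4 (*Sema3c*, *Epha1*, *Epha3* and *Sema4c*, smallest adjusted p 0.836). The number of members whose genotypes did not overlap was 0, and 0 to 1 when each library was left out. The median log2 fold change of members ranged from -0.0404 to 0.0197. For the 28 named members tested, 36 of 468 values changed sign, in 14 members whose log2 fold change was at most 0.17 in size. Rescaling to a median fold change of 1 moved values by 0.0015. Depth limits *Sema4f*, *Epha5*, *Efna3* and *Plxnb3*, with counts of few reads in most libraries.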

Other observations

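Of the 30 signaling genes tested outside the member list, 10 (33.3%) were highest in wild-type library 3, against 15.7% of all genes tested, and 2 were lowest there, *Chn2* at 115 and *Met* at 74.3. Among the 10, *L1cam*, a neural adhesion molecule that joins the Sema3a receptor complex, was at 13.0, 13.6, 351, 14.4 and 20.7 in wild-type libraries 1 to 5 and at 11.1 to 21.6 in null. *Crmp1*, a mediator of Sema3a signaling in axons, was at 171, 174, 559, 203 and 186 in wild type and at 161 to 191 in null. *Dpysl4*, of the same family as *Crmp1*, was at 140 in that library, against 49.6 to 65.2 in the other wild-type libraries and 44.2 to 77.6 in null. Apart from that library, the ranges of the 2 genotypes overlapped for all 3 genes, which were chosen after their values were seen.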
